A study of Mus musculus with 32 samples.

Results

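The 52 genes described here act in G2 and mitosis: kinases and cyclins that start mitosis, and proteins of the spindle, the kinetochore, the spindle checkpoint, the condensin complex and the midzone that cuts the cell. They were chosen by name, from a list of mitotic kinase, spindle, kinetochore and condensin genes that was drawn up with earlier results of these data known. All 52 were found by symbol among the 43345 mouse genes of each count table. By role they comprised 9 mitotic kinases and cyclins with their phosphatases, 5 spindle checkpoint genes, 5 genes of the anaphase-promoting complex and separase step, 8 kinesins, 8 centromere and kinetochore genes, 8 condensin and chromosome structure genes, 8 spindle assembly, midzone and cytokinesis genes, and the transcription factor Foxm1. All 52 passed the filter on low counts in both cell systems, and the lowest count of any of them in any library was 66. Together they held 0.671% to 0.983% of the mouse counts of a library.

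In a dividing cell, cyclin B bound to Cdk1 starts mitosis, and the kinases Plk1, Aurka and Aurkb then drive centrosome maturation, spindle assembly and chromosome attachment. The spindle checkpoint holds back the anaphase-promoting complex, a ubiquitin ligase, until every kinetochore is attached to microtubules. Once the checkpoint is satisfied, securin and cyclin B are degraded, separase opens cohesin, and the midzone proteins build the site where the cell is cut. Most of these transcripts accumulate in G2 and mitosis, under the MuvB complex with B-Myb and FoxM1, so their level in a culture is widely used as a readout of how many cells are cycling. B cells divide several times after stimulation, which is when class switch recombination takes place.

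The study set ELOF1-deficient against ELOF1-proficient mouse B cells. ELOF1 travels with elongating RNA polymerase II and takes part in transcription-coupled repair. The line CH12F3 is a mouse B cell lymphoma line that switches to IgA in culture. All CH12F3 libraries carried the genotype label Elof1-KO: the deficient cells were Elof1-KO +Vector (below, vector) and the proficient cells were Elof1-KO +ELOF1 (below, ELOF1), so both were knockout cells and the reference had ELOF1 put back. They were stimulated with α-CD40, IL4 and TGF-β for 1.5 days (4 libraries per genotype), 3 days (2 per genotype) or 7 days (2 per genotype). The primary cells were spleen B cells labelled Elof1-cKO (below, cKO) or wild-type (below, WT), cultured with LPS and IL4 for 2.5 days (5 libraries per genotype) or 3.5 days (3 per genotype). The labels give no clone, no Cre driver, no age and no number of mice or pooling, and nothing says that replicates came from separate cultures or animals. The p-values therefore measure the spread between these libraries, which may be technical.

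Levels are given as CPM, mouse counts brought to a common library size with TMM scaling, and the tables held 7112130 to 15550229 mouse counts per CH12F3 library and 9807560 to 16359477 per spleen library. Elof1 was lower in every deficient library than in every proficient library of its system: at CH12F3 day 1.5 it averaged 3.76 ± 1.99 CPM in vector cells and 467 ± 233 CPM in ELOF1 cells (SD, n = 4 each), and at spleen day 2.5 4.2 ± 1.8 CPM in cKO cells and 29.0 ± 16.5 CPM in WT cells (SD, n = 5 each). None of the 8 B cell markers was at 0 in any group. Library names in the labels fall into 2 separate runs of numbers, called library series here; both genotypes were in both series at CH12F3 day 1.5 and spleen day 2.5, and every other group lay in the second series. Libraries of the first series held more mitochondrial ribosomal RNA, with 0.27% to 0.566% in the second and 0.984% to 2.637% in the first for CH12F3, and 0.07% to 0.24% in the second and 2.439% to 3.078% in the first for spleen. The series was therefore a term in every fit. A gene was called changed when the adjusted p of edgeR's quasi-likelihood test, with Benjamini-Hochberg adjustment over all genes tested, was below 0.05. Every ± after a log2 fold change is its standard error. Counts of 22 members are uncertain, since the span of each overlaps another annotated gene and neither the use of strand nor the handling of overlaps in counting is given in the sources used here. On the opposite strand only, these are Ccna2, Cdc25b, Cdc25c, Bub3, Cdc20, Ube2c, Kif20a, Kif4, Cenpf, Knstrn, Ncapg, Smc2, Prc1 and Ect2, and with an overlap on the same strand Kif20b, Ndc80, Ncapd2, Smc4, Top2a, Tpx2, Nusap1 and Foxm1.

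Promoters were available from RefSeq (GRCm38.p6) for 44 of the 52 genes, as 250 bases before to 50 bases after the start. They were searched on both strands for the letters TTTGAA and TTTAAA, which are forms of the cell cycle genes homology region bound by MuvB complexes, for the CCAAT box bound by NF-Y, and for the E2F-like letters TTTCCCGC, TTTGGCGC and TTTCGCGC. The promoters of Kif23 and Racgap1 are shown because these are the genes called between the genotypes, and those of Plk1, Birc5 and Top2a because these were called between the days. Capitals mark the letters found; on the opposite strand TTTGAA reads TTCAAA and CCAAT reads ATTGG, and TTTAAA is its own reverse.
Kif23, chr9:61946750-61947049, minus strand: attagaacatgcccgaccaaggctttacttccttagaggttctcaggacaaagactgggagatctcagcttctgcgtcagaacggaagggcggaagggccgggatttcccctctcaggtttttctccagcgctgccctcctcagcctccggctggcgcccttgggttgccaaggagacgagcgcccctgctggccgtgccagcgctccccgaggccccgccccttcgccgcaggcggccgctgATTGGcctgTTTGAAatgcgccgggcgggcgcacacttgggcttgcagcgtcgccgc
Racgap1, chr15:99651607-99651906, minus strand: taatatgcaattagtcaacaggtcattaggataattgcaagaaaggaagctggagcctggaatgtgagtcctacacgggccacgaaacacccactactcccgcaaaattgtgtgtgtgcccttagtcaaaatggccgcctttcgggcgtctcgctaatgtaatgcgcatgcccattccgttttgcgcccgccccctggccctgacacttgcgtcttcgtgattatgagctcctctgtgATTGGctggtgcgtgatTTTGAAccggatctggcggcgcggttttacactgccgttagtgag
Plk1, chr7:122159185-122159484, plus strand: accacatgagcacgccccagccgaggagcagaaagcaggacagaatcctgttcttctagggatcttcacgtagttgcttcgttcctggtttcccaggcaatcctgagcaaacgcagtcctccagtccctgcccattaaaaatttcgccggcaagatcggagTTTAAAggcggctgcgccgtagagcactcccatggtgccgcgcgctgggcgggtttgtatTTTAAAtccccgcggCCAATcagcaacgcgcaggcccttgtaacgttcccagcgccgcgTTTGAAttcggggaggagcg
Birc5, chr11:117848987-117849286, plus strand: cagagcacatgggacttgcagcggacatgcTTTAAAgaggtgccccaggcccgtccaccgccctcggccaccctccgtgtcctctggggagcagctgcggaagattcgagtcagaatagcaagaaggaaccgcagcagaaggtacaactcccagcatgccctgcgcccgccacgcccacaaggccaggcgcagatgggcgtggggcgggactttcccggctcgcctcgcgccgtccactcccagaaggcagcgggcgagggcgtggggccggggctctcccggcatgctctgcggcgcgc
Top2a, chr11:99024140-99024439, minus strand: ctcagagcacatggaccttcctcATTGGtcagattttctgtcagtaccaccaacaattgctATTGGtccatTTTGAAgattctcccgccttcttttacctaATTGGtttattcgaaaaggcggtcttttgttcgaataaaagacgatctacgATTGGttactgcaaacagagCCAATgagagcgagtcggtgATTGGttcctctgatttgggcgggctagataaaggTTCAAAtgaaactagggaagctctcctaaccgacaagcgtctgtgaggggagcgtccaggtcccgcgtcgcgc

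Kif23 and Racgap1 both held 1 CCAAT box followed closely by 1 TTTGAA around the start, in the same order: in Kif23 ATTGG lay at -7 and TTTGAA at 3, and in Racgap1 ATTGG lay at -12 and TTTGAA at 6, counted from the start. Members not called between the genotypes held this order near the start too, such as Kif4 (ATTGG at -5, TTTGAA at 20) and Prc1 (CCAAT at -37, TTTGAA at -5). Plk1 held CCAAT at -14, TTTGAA at 31 and TTTAAA at -89 and -29. Top2a held 6 CCAAT boxes, with TTTGAA at -179 and -23. Birc5 held TTTAAA at -220 and none of the other letters in this window. Across the members, TTTGAA was in 32 of 44 promoters (72.7%) and in 17.8% of all 32544 different promoters of the table. CCAAT was in 30 of 44 (68.2%) and in 37.4% of all, and 28 of 44 (63.6%) held CCAAT together with TTTGAA or TTTAAA, as 10.7% of all did. TTTAAA was in 9 of 44 (20.5%) against 13.1% of all, and the E2F-like letters in 5 of 44 (11.4%) against 1.9%. Of 42 TTTGAA matches in members, 33 lay within 100 bases before the start or after it, with a median position of -16, and of 65 CCAAT matches 43 did, with a median of -71. A match is a run of letters and not a measured binding site. Smc4, Foxm1, Cdc25c, Tpx2, Spc24, Kif20a, Aurkb and Ccna2 were not searched.

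Levels between genes were compared per kilobase of exon (CPM per kb), as the mean of the group means of each system. Ube2s, the E2 enzyme that extends ubiquitin chains together with the anaphase-promoting complex, was highest in both systems, at 195 CPM per kb in CH12F3 (178 to 227 over the groups) and 167 in spleen. Cdc20, the activator of that complex, followed at 98.7 in CH12F3 and 116 in spleen. The checkpoint protein Bub3 came next in CH12F3 at 84.4, and the condensin subunit Ncapd2 came next in spleen at 92.5. The lowest levels in CH12F3 were those of the kinetochore genes Spc25 (6.88), Nuf2 (7.30) and Cenpf (8.54). In spleen the lowest were Pttg1, which encodes securin (5.53), Ttk, the checkpoint kinase Mps1 (6.37), and Cenpf (7.46). By role, the median level was 40.9 in CH12F3 and 38.5 in spleen for the kinases and cyclins, and 14.8 in CH12F3 and 13.2 in spleen for the kinetochore genes. Exonic lengths came from the deposited table, from 0.86 kb (Ube2s) to 15.43 kb (Cenpf).

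In CH12F3 cells, no mitotic gene passed the test between the genotypes. None of the 52 was called between vector and ELOF1 cells at day 1.5, where 1.15% of all genes were called, at day 3 (0.00704% of all genes) or at day 7 (0.0352% of all genes). At an unadjusted p below 0.05 there were 3 members at day 1.5 (Ect2, Kif20a and Ndc80), 0 at day 3 and 0 at day 7, with 13.4%, 4.15% and 5.7% of all genes past that p. DESeq2 also called 0 members on each day. The median log2 fold change, vector over ELOF1, was 0.03 at day 1.5, 0.01 at day 3 and -0.01 at day 7, against 0.01, 0.00 and 0.01 over all genes tested. The depth and replicate number allowed differences to be bounded: 47, 45 and 44 of the 52 had a 95% interval within ±0.5 on the log2 scale on the 3 days, and all 52 lay within ±1. The median width on each side of the estimate was 0.19 at day 1.5 and 0.26 at days 3 and 7. In bulk RNA, a change in the share of cells in G2 and mitosis and a change in RNA per such cell cannot be told apart.

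Plk1 had 107, 95.5, 154 and 131 CPM in vector cells and 107, 108, 129 and 127 CPM in ELOF1 cells at day 1.5. At day 3 Plk1 had 116 and 114 CPM in vector cells and 121 and 110 CPM in ELOF1 cells, and at day 7 142 and 127 CPM in vector cells and 143 and 134 CPM in ELOF1 cells. The genotypes overlapped at every day, with a log2 fold change of 0.03 ± 0.08 at day 1.5. Ccnb1 had 122, 130, 210 and 211 CPM in vector cells and 135, 110, 236 and 198 CPM in ELOF1 cells at day 1.5; this gene encodes cyclin B1. The range within each genotype was far wider than the distance between their means, and the low values were those of replicates 1 and 2, the first library series. Top2a had 878, 828, 727 and 776 CPM in vector cells and 866, 813, 813 and 819 CPM in ELOF1 cells at day 1.5. Top2a, the topoisomerase that untangles sister chromatids, was the most precisely measured member at that day, and its log2 fold change was -0.05 ± 0.07. Mki67 had 1089, 929, 725 and 676 CPM in vector cells and 1093, 1025, 804 and 710 CPM in ELOF1 cells at day 1.5. Mki67, which encodes the proliferation antigen Ki-67, differed by -0.09 ± 0.10, and replicates 1 and 2 were high in both genotypes.

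The checkpoint kinase gene Bub1 was similar: Bub1 had 174, 137, 131 and 153 CPM in vector cells and 138, 80.7, 148 and 158 CPM in ELOF1 cells at day 1.5. Its log2 fold change was 0.20 ± 0.16, and the lowest value was ELOF1 replicate 2. Cdc20 had 126, 146, 228 and 200 CPM in vector cells and 134, 141, 196 and 188 CPM in ELOF1 cells at day 1.5. The groups overlapped, at 0.07 ± 0.12. Kif11 had 257, 233, 234 and 242 CPM in vector cells and 227, 203, 246 and 236 CPM in ELOF1 cells at day 1.5. Kif11 encodes the motor that pushes the spindle poles apart, and it differed by 0.08 ± 0.07. Cenpe had 322, 337, 214 and 215 CPM in vector cells and 297, 349, 216 and 214 CPM in ELOF1 cells at day 1.5. Cenpe, a kinetochore motor, was higher in replicates 1 and 2 of both genotypes and differed between them by 0.01 ± 0.07. Tpx2 had 213, 216, 236 and 210 CPM in vector cells and 199, 221, 219 and 216 CPM in ELOF1 cells at day 1.5. Tpx2, the activator of Aurora A on the spindle, differed by 0.03 ± 0.07. Birc5 had 71.1, 65.8, 71.8 and 64.3 CPM in vector cells and 59.6, 68.9, 63.5 and 62.2 CPM in ELOF1 cells at day 1.5. Birc5 encodes survivin of the chromosomal passenger complex, and its difference was 0.10 ± 0.08. Foxm1 had 94.3, 87.7, 121 and 99.9 CPM in vector cells and 93.4, 102, 110 and 98.6 CPM in ELOF1 cells at day 1.5. Foxm1, the transcription factor of the set, differed by -0.01 ± 0.09.

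Replicate numbers paired the CH12F3 libraries, and with the replicate number as a block 2 members were called at day 1.5, Ndc80 higher and Ect2 lower in vector cells, beside 639 genes higher and 582 lower in the whole table (8.6% of all genes). Ndc80 had 56.7, 44.1, 45.2 and 42.5 CPM in vector cells and 41.3, 32.8, 39.6 and 39.0 CPM in ELOF1 cells at day 1.5. Ndc80, a kinetochore component that grips microtubules, lay higher in every vector library than in every ELOF1 library. Its log2 fold change was 0.30 ± 0.10 without the block (edgeR adjusted p = 0.21) and 0.29 with it (adjusted p = 0.036), and its adjusted p ranged from 0.036 to 1 over the alternatives. Ect2 had 64.0, 72.3, 79.7 and 81.1 CPM in vector cells and 89.1, 76.3, 100 and 92.0 CPM in ELOF1 cells at day 1.5. Ect2, the exchange factor that activates RhoA at the division plane, was lower in 4 of 4 pairs, at -0.27 ± 0.08 without the block (adjusted p = 0.13) and -0.26 with it (adjusted p = 0.042, from 0.042 to 0.79 over the alternatives). With the block, 0 members were called at day 3 and 0 at day 7. At day 3 Ndc80 had 42.2 and 41.6 CPM in vector cells and 37.7 and 36.7 CPM in ELOF1 cells, and at day 7 35.2 and 36.6 CPM in vector cells and 35.5 and 37.2 CPM in ELOF1 cells. At day 3 Ect2 had 81.8 and 79.9 CPM in vector cells and 91.6 and 84.0 CPM in ELOF1 cells, and at day 7 72.5 and 82.2 CPM in vector cells and 92.9 and 87.9 CPM in ELOF1 cells. Ect2 lay lower in both vector libraries on each of these days, at -0.12 ± 0.11 and -0.22 ± 0.11, and Ndc80 overlapped at day 7. With 2 libraries per group such separation was common. Of the 52 members, 7 lay lower and 6 higher without overlap at day 3, and 6 lower and 4 higher at day 7. The share of all genes that did so was not counted. Neither these counts nor the separation of Ect2 at days 3 and 7 can therefore be read as a genotype difference. Ndc80 lies at chr17:71496100-71526857 and Ect2 at chr3:27097222-27153878 in mm10.

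Kif23 varied with the replicate number instead of the genotype in CH12F3 cells. Kif23 had 102, 86.7, 85.7 and 129 CPM in vector cells and 90.3, 79.6, 86.4 and 118 CPM in ELOF1 cells at day 1.5. At day 3 Kif23 had 79.6 and 127 CPM in vector cells and 86.6 and 123 CPM in ELOF1 cells, and at day 7 85.0 and 134 CPM in vector cells and 92.6 and 121 CPM in ELOF1 cells. It lay between 118 and 134 CPM in day 1.5 replicate 4, day 3 replicate 2 and day 7 replicate 2 of both genotypes, and between 79.6 and 102 in the other 10 libraries. Espl1, the gene for separase, went the other way: Espl1 had 226, 195, 313 and 190 CPM in vector cells and 259, 236, 307 and 212 CPM in ELOF1 cells at day 1.5. This made Espl1 the member with the widest interval at day 1.5. Both patterns were noticed after the values were seen.

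Between the culture days of CH12F3 cells, none of the 52 was called. Backgrounds were 0.00704% of all genes for vector day 3 over day 1.5, 0.169% for vector day 7 over day 1.5, 0.00704% for ELOF1 day 3 over day 1.5 and 0.0493% for ELOF1 day 7 over day 1.5. Median log2 fold changes of the members were -0.11 and -0.03 in vector cells at days 3 and 7, and -0.10 and 0.00 in ELOF1 cells. DESeq2 called 1 member in each vector comparison: Prc1, a microtubule bundler of the midzone, lower at day 3 (-0.43 ± 0.10 in the edgeR fit), and Cdc25b, a phosphatase that activates Cdk1, lower at day 7 (-0.50 ± 0.13). It called 0.275% and 0.761% of all genes lower in these comparisons. The summed level of the 52 averaged 7312 ± 442 CPM at day 3 and 7618 ± 215 at day 7 in vector cells (SD, n = 2 each), with 7892 ± 168 at day 1.5 (SD, n = 4). In ELOF1 cells it was 7358 ± 226 at day 3, 7670 ± 183 at day 7 and 7814 ± 201 at day 1.5.

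In spleen B cells, Racgap1 and Kif23 were higher without ELOF1. Racgap1 and Kif23 encode the subunits of centralspindlin, a complex that bundles microtubules of the midzone and recruits Ect2 to it. Racgap1 had 128, 136, 118, 131 and 122 CPM in cKO cells and 95.4, 103, 107, 107 and 110 CPM in WT cells at day 2.5, and 114, 126 and 112 CPM in cKO cells and 94.8, 96.8 and 100 CPM in WT cells at day 3.5. Every cKO library lay above every WT library on both days. The log2 fold change was 0.28 ± 0.07 at day 2.5 (1.21-fold, edgeR adjusted p = 0.02) and 0.27 ± 0.08 at day 3.5 (adjusted p = 0.13), so the second day did not pass the threshold. Kif23 had 107, 102, 111, 126 and 117 CPM in cKO cells and 78.0, 80.6, 89.3, 99.0 and 111 CPM in WT cells at day 2.5, and 91.9, 101 and 86.3 CPM in cKO cells and 64.9, 74.3 and 70.2 CPM in WT cells at day 3.5. At day 2.5 the highest WT library, replicate 5, lay among the cKO libraries, and at day 3.5 the groups did not overlap. The log2 fold change was 0.30 ± 0.07 at day 2.5 (1.23-fold, adjusted p = 0.023) and 0.41 ± 0.09 at day 3.5 (1.33-fold, adjusted p = 0.031). Kif23 lies at chr9:61917280-61946799 and Racgap1 at chr15:99620496-99651656 in mm10.

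These were the only called members: 2 of 52 at day 2.5, with 5.18% of all genes called, and 1 of 52 at day 3.5, with 2.07% of all genes called. The members were thus called at a share near or below that of all genes. Across the 52, the median log2 fold change was 0.04 at day 2.5 (33 above 0) and 0.08 at day 3.5 (44 above 0), against 0.00 over all genes on both days. At an unadjusted p below 0.05 there were 8 members at day 2.5, with 18.0% of all genes past that p, and 10 at day 3.5, with 13.5% of all genes. With the replicate number as a block, 5 members were called at day 2.5 (Racgap1, Kif23, Kif20a and Foxm1 higher and Ect2 lower), with 11.5% of all genes called, and 3 at day 3.5 (Kif23, Kif20a and Ncaph, all higher), with 6.21% of all genes called; these numbers paired only some of the spleen libraries. The calls depended on the library and the scaling. Leaving out cKO replicate 1 or WT replicate 1 of day 2.5 left 0 of the 2 calls, leaving out cKO replicate 2 left only Kif23, and leaving out cKO replicate 3 or WT replicate 2 left only Racgap1; leaving out any 1 library of day 3.5 other than WT replicate 2 ended the Kif23 call there. With fly spike-in scaling, which lowered the median of all genes to -0.14 at day 2.5 and -0.29 at day 3.5, no member was called. Kif23 was then at 0.15 ± 0.19 and 0.16 ± 0.24, and Racgap1 at 0.13 ± 0.19 and 0.00 ± 0.24. These standard errors were wider than the 0.07 to 0.09 with TMM.

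**Figure D1:**
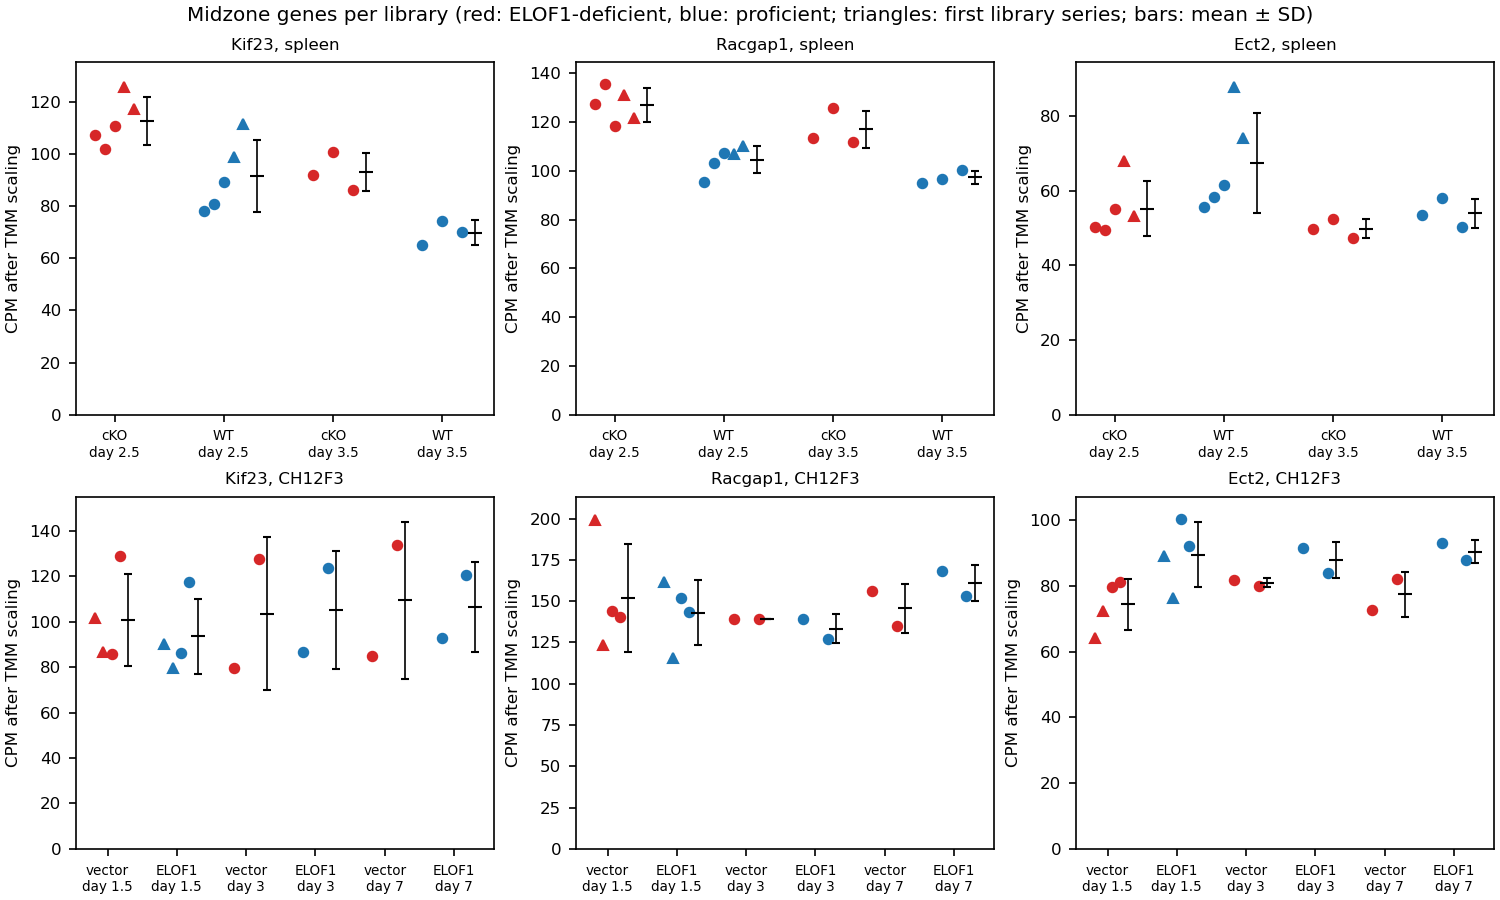
Levels of Kif23, Racgap1 and Ect2 in every library (CPM after TMM scaling) by group, with spleen groups and CH12F3 groups in separate panels, triangles for the first library series and bars for mean ± SD. In spleen the cKO libraries of Racgap1 sit above the WT libraries on both days, while in CH12F3 the vector and ELOF1 libraries overlap for Kif23 and Racgap1.

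In CH12F3 cells neither partner was called: Kif23 was at 0.11 ± 0.20, -0.02 ± 0.27 and 0.04 ± 0.27 and Racgap1 at 0.08 ± 0.14, 0.06 ± 0.19 and -0.14 ± 0.19 on days 1.5, 3 and 7. With the replicate number as a block, Kif23 was at 0.10 ± 0.07, -0.04 ± 0.10 and 0.02 ± 0.10 on the same days and was not called. Ect2, the protein that centralspindlin recruits, did not follow its partners in spleen. Ect2 had 50.4, 49.4, 55.0, 68.0 and 53.3 CPM in cKO cells and 55.7, 58.2, 61.6, 87.9 and 74.2 CPM in WT cells at day 2.5, and 49.9, 52.5 and 47.3 CPM in cKO cells and 53.6, 58.1 and 50.2 CPM in WT cells at day 3.5. Its log2 fold change was -0.28 ± 0.09 at day 2.5 (adjusted p = 0.082, with 0.039 in DESeq2 and 0.014 with the replicate block) and -0.11 ± 0.11 at day 3.5, below 0 as on all 3 CH12F3 days. Kif20a, another midzone kinesin, was above 0 in all 5 genotype comparisons, at 0.21, 0.09 and 0.06 in CH12F3 and 0.20 and 0.27 in spleen, and it was called in none of them without the replicate block. Ect2 and Kif20a were singled out after their values were seen. Kif20a overlaps Cdc23.

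By role, kinesins had 1 call higher of 8 on each day (Kif23), and the spindle assembly, midzone and cytokinesis genes had 1 call of 8 at day 2.5 (Racgap1) and 0 at day 3.5. All other roles had 0 calls. Plk1 had 202, 210, 189, 148 and 136 CPM in cKO cells and 196, 192, 186, 148 and 132 CPM in WT cells at day 2.5, and 143, 154 and 135 CPM in cKO cells and 136, 154 and 126 CPM in WT cells at day 3.5. The genotypes overlapped, at 0.05 ± 0.07 and 0.05 ± 0.09. Ccnb1 had 179, 174, 164, 126 and 158 CPM in cKO cells and 165, 182, 198, 138 and 166 CPM in WT cells at day 2.5, and 160, 179 and 150 CPM in cKO cells and 142, 165 and 159 CPM in WT cells at day 3.5. The differences were -0.09 ± 0.09 and 0.07 ± 0.11. Birc5 had 121, 118, 122, 134 and 127 CPM in cKO cells and 106, 106, 107, 111 and 122 CPM in WT cells at day 2.5, and 88.9, 95.8 and 97.8 CPM in cKO cells and 76.5, 91.5 and 79.7 CPM in WT cells at day 3.5. Birc5 was at 0.17 ± 0.06 (adjusted p = 0.15) and 0.19 ± 0.08 (adjusted p = 0.32).

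Cdc20 had 250, 274, 232, 154 and 202 CPM in cKO cells and 251, 269, 267, 152 and 190 CPM in WT cells at day 2.5, and 234, 216 and 210 CPM in cKO cells and 193, 230 and 177 CPM in WT cells at day 3.5. Cdc20 differed by -0.01 ± 0.10 and 0.14 ± 0.12, and replicates 4 and 5 of day 2.5, the first library series, were low in both genotypes. Bub1 had 76.8, 75.6, 80.2, 97.1 and 93.9 CPM in cKO cells and 66.1, 81.3, 79.4, 119 and 99.4 CPM in WT cells at day 2.5, and 68.5, 73.5 and 68.1 CPM in cKO cells and 63.7, 62.1 and 61.5 CPM in WT cells at day 3.5. Bub1 was at -0.06 ± 0.08 and 0.17 ± 0.10, and at day 3.5 its groups did not overlap. Kif11 had 222, 200, 209, 260 and 198 CPM in cKO cells and 189, 183, 219, 270 and 221 CPM in WT cells at day 2.5, and 151, 190 and 155 CPM in cKO cells and 140, 174 and 163 CPM in WT cells at day 3.5. Kif11 differed by 0.02 ± 0.10 and 0.06 ± 0.13. Tpx2 had 186, 178, 183, 200 and 250 CPM in cKO cells and 181, 187, 180, 202 and 266 CPM in WT cells at day 2.5, and 145, 148 and 132 CPM in cKO cells and 148, 160 and 136 CPM in WT cells at day 3.5. Tpx2 differed by -0.02 ± 0.08 and -0.06 ± 0.11.

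Mki67 had 892, 849, 1029, 1818 and 836 CPM in cKO cells and 720, 836, 706, 1655 and 881 CPM in WT cells at day 2.5, and 662, 990 and 726 CPM in cKO cells and 748, 768 and 713 CPM in WT cells at day 3.5. Replicate 4 of day 2.5 stood far above the rest in both genotypes, and the log2 fold changes were 0.20 ± 0.19 and 0.09 ± 0.25. Cenpe had 117, 109, 144, 247 and 189 CPM in cKO cells and 105, 110, 108, 224 and 204 CPM in WT cells at day 2.5, and 90.3, 108 and 94.7 CPM in cKO cells and 92.4, 96.3 and 98.4 CPM in WT cells at day 3.5. Cenpe differed by 0.13 ± 0.09 and 0.03 ± 0.12, and its first-series libraries were high in both genotypes. Ndc80 had 40.3, 44.1, 41.4, 50.4 and 67.8 CPM in cKO cells and 37.7, 37.5, 41.6, 43.9 and 70.8 CPM in WT cells at day 2.5, and 36.3, 35.1 and 37.5 CPM in cKO cells and 29.99, 34.2 and 29.4 CPM in WT cells at day 3.5. Ndc80 differed by 0.08 ± 0.11 and 0.22 ± 0.15, and at day 3.5 its cKO libraries all lay above the WT ones. Top2a had 869, 806, 844, 1087 and 1103 CPM in cKO cells and 778, 802, 817, 1072 and 1169 CPM in WT cells at day 2.5, and 656, 770 and 657 CPM in cKO cells and 635, 662 and 640 CPM in WT cells at day 3.5. Top2a differed by 0.03 ± 0.07 and 0.10 ± 0.09. Foxm1 had 118, 124, 128, 124 and 70.7 CPM in cKO cells and 104, 109, 105, 96.7 and 62.1 CPM in WT cells at day 2.5, and 116, 115 and 121 CPM in cKO cells and 115, 124 and 98.9 CPM in WT cells at day 3.5. Replicate 5 was lowest at day 2.5 in both genotypes, and Foxm1 differed by 0.25 ± 0.13 and 0.06 ± 0.17.

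At day 3.5, with 3 libraries per genotype, 9 members did not overlap with cKO higher (Ncaph, Bub1, Aurka, Ncapd2, Kif22, Kif23, Racgap1, Ndc80 and Kif20a) and 1 with cKO lower, Pttg1. Of all genes tested, 12.6% did not overlap with cKO higher and 12.5% with cKO lower. Pttg1 had 9.82, 11.3, 9.56, 6.31 and 10.8 CPM in cKO cells and 14.2, 15.6, 13.9, 8.74 and 9.83 CPM in WT cells at day 2.5, and 10.7, 9.36 and 8.47 CPM in cKO cells and 13.0, 13.5 and 11.7 CPM in WT cells at day 3.5. Pttg1, the securin gene, was at -0.35 ± 0.14 and -0.42 ± 0.19 (adjusted p = 0.2 and 0.32), the lowest log2 fold change of the 52 on both days. The groups overlapped at day 2.5 through replicates 4 and 5.

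**Figure D2:**
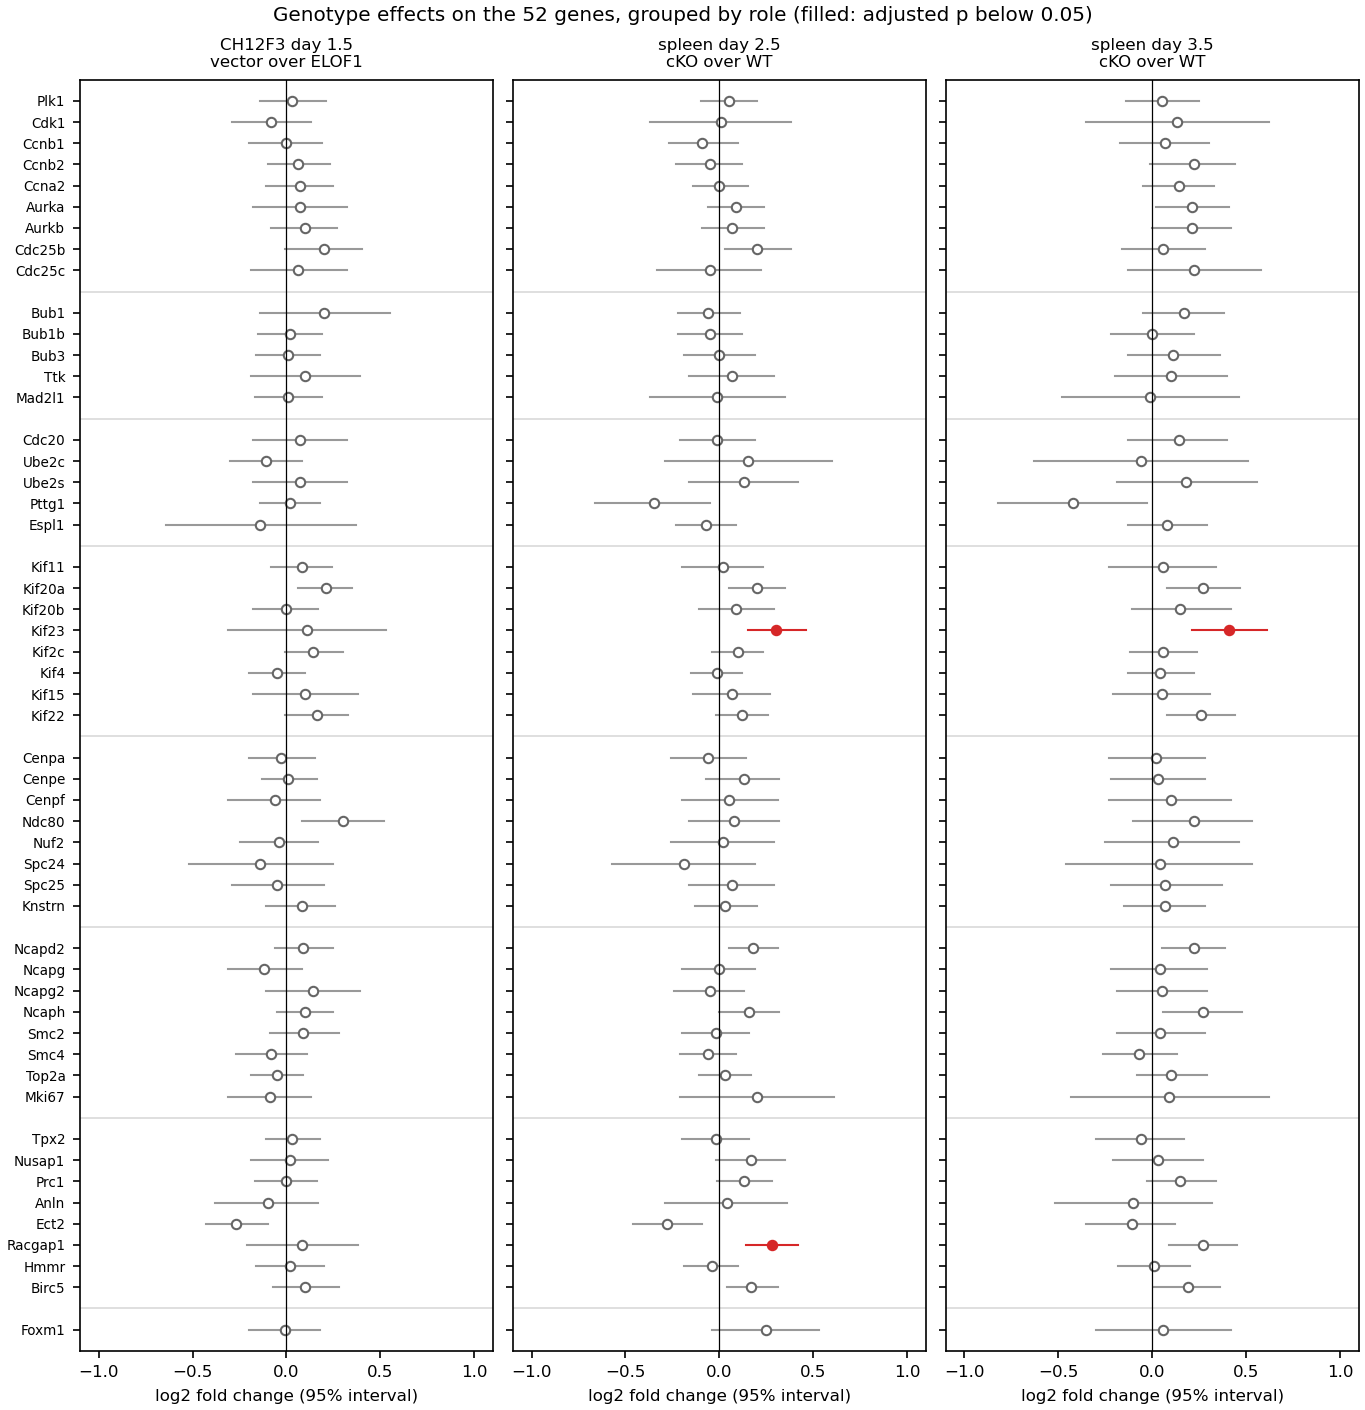
Log2 fold change, deficient over proficient, of each of the 52 genes with its 95% interval, for CH12F3 day 1.5 and spleen days 2.5 and 3.5, ordered by role; filled points have an adjusted p below 0.05. No point is filled in CH12F3, Racgap1 and Kif23 are filled at spleen day 2.5 and Kif23 alone at day 3.5.

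A difference of the genotype effect between days was called for none of the 52. The difference of effects was called for 0.0% of all genes at CH12F3 day 3 against day 1.5, 0.0% at day 7 against day 1.5 and 0.0% at spleen day 3.5 against day 2.5, in edgeR and in DESeq2; 173, 272 and 278 genes had an unadjusted p below 0.05. The smallest p among the members belonged to Birc5 (-0.29 ± 0.14) and Prc1 (-0.16 ± 0.13) at CH12F3 day 3, to Spc25 (0.36 ± 0.20) and Ndc80 (-0.32 ± 0.18) at CH12F3 day 7, and to Ccnb2 (0.27 ± 0.13) and Bub1 (0.22 ± 0.13) in spleen, each with an adjusted p of 1. For Kif23 the difference between the spleen days was 0.11 ± 0.12 and for Racgap1 -0.01 ± 0.11.

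Between day 2.5 and day 3.5 of spleen culture, 3 mitotic genes fell in cKO cells and 8 in WT cells, and none of the 52 was called higher in either. In cKO cells 3.4% of all genes were called and 0.688% were called lower, and in WT cells 5.45% were called and 1.28% were called lower. The 3 in cKO cells (Plk1, Birc5 and Smc4) were among the 8 in WT cells. The median log2 fold change of the 52, day 3.5 over day 2.5, was -0.20 in cKO and -0.25 in WT cells, against 0.00 and 0.01 over all genes. The sign was below 0 or at 0 for all but 1 member in cKO cells and all but 2 in WT cells. At an unadjusted p below 0.05 there were 18 members in cKO and 31 in WT cells, with 15.8% and 18.3% of all genes past that p. No difference of the genotype effects between the days was called, as given above, so more calls in WT cells do not show a larger change there.

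Plk1, the Polo kinase, fell most among the called members. Plk1 had 143, 154 and 135 CPM at day 3.5 and 202, 210, 189, 148 and 136 CPM at day 2.5 in cKO cells, against 136, 154 and 126 CPM at day 3.5 and 196, 192, 186, 148 and 132 CPM at day 2.5 in WT cells. Of the day 2.5 libraries, replicates 1 to 3 lay above all day 3.5 libraries of their genotype, and replicates 4 and 5, from the first library series, lay among them. The log2 fold change was -0.47 ± 0.09 in cKO cells (adjusted p = 0.0082) and -0.47 ± 0.09 in WT cells (adjusted p = 0.0063). Birc5 had 88.9, 95.8 and 97.8 CPM at day 3.5 and 121, 118, 122, 134 and 127 CPM at day 2.5 in cKO cells, against 76.5, 91.5 and 79.7 CPM at day 3.5 and 106, 106, 107, 111 and 122 CPM at day 2.5 in WT cells. For Birc5 every day 3.5 library lay below every day 2.5 library in both genotypes. It fell by 0.35 ± 0.08 in cKO cells (adjusted p = 0.02) and by 0.37 ± 0.08 in WT cells (adjusted p = 0.014) on the log2 scale. Smc4 had 162, 189 and 160 CPM at day 3.5 and 223, 220, 230, 348 and 358 CPM at day 2.5 in cKO cells, against 179, 167 and 189 CPM at day 3.5 and 216, 226, 219, 386 and 416 CPM at day 2.5 in WT cells. Smc4, a core ATPase of condensin, was lower in each day 3.5 library than in each day 2.5 library, by -0.35 ± 0.09 in cKO cells (adjusted p = 0.033) and -0.35 ± 0.09 in WT cells (adjusted p = 0.032). Smc4 holds Mir15b and Mir16-2 within its introns.

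The remaining genes passed the threshold in WT cells and missed it in cKO cells. Kif22 had 112, 104 and 110 CPM at day 3.5 and 134, 128, 129, 114 and 117 CPM at day 2.5 in cKO cells, against 86.7, 93.7 and 92.0 CPM at day 3.5 and 116, 129, 125, 91.8 and 112 CPM at day 2.5 in WT cells. Kif22, a chromosome-arm motor, was at -0.28 ± 0.08 in cKO cells (adjusted p = 0.079) and -0.42 ± 0.08 in WT cells (adjusted p = 0.0079); its annotation also has a pseudogene copy, so its reads may be shared. Aurkb had 162, 152 and 180 CPM at day 3.5 and 196, 199, 195, 142 and 118 CPM at day 2.5 in cKO cells, against 140, 152 and 135 CPM at day 3.5 and 182, 183, 200, 133 and 111 CPM at day 2.5 in WT cells. Aurkb, the kinase of the chromosomal passenger complex, was at -0.26 ± 0.09 in cKO cells (adjusted p = 0.17) and -0.40 ± 0.10 in WT cells (adjusted p = 0.022). Bub1b had 136, 135 and 140 CPM at day 3.5 and 185, 163, 176, 169 and 208.2 CPM at day 2.5 in cKO cells, against 134, 148 and 129 CPM at day 3.5 and 181, 174, 174, 179 and 226 CPM at day 2.5 in WT cells. Bub1b, which encodes the checkpoint protein BubR1, did not overlap between days in either genotype, at -0.33 ± 0.10 in cKO cells (adjusted p = 0.079) and -0.38 ± 0.10 in WT cells (adjusted p = 0.035).

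Top2a had 656, 770 and 657 CPM at day 3.5 and 869, 806, 844, 1087 and 1103 CPM at day 2.5 in cKO cells, against 635, 662 and 640 CPM at day 3.5 and 778, 802, 817, 1072 and 1169 CPM at day 2.5 in WT cells. Top2a did not overlap between days either, at -0.25 ± 0.08 in cKO cells (adjusted p = 0.12) and -0.33 ± 0.08 in WT cells (adjusted p = 0.032). Aurka had 87.8, 90.0 and 96.2 CPM at day 3.5 and 101, 115, 102, 81.5 and 76.4 CPM at day 2.5 in cKO cells, against 72.0, 84.6 and 79.8 CPM at day 3.5 and 90.7, 100, 99.5, 82.7 and 73.2 CPM at day 2.5 in WT cells. Aurka, the centrosome kinase, was at -0.20 ± 0.09 in cKO cells (adjusted p = 0.28) and -0.32 ± 0.09 in WT cells (adjusted p = 0.044). By role, calls in WT cells were 3 of 9 kinases and cyclins, 1 of 5 checkpoint genes, 2 of 8 condensin and chromosome structure genes, 1 of 8 kinesins, 1 of 8 spindle and midzone genes, and none of the kinetochore genes, anaphase-promoting complex genes or Foxm1. The kinetochore genes had a median of -0.21 in cKO and -0.24 in WT cells without a call.

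**Figure D3:**
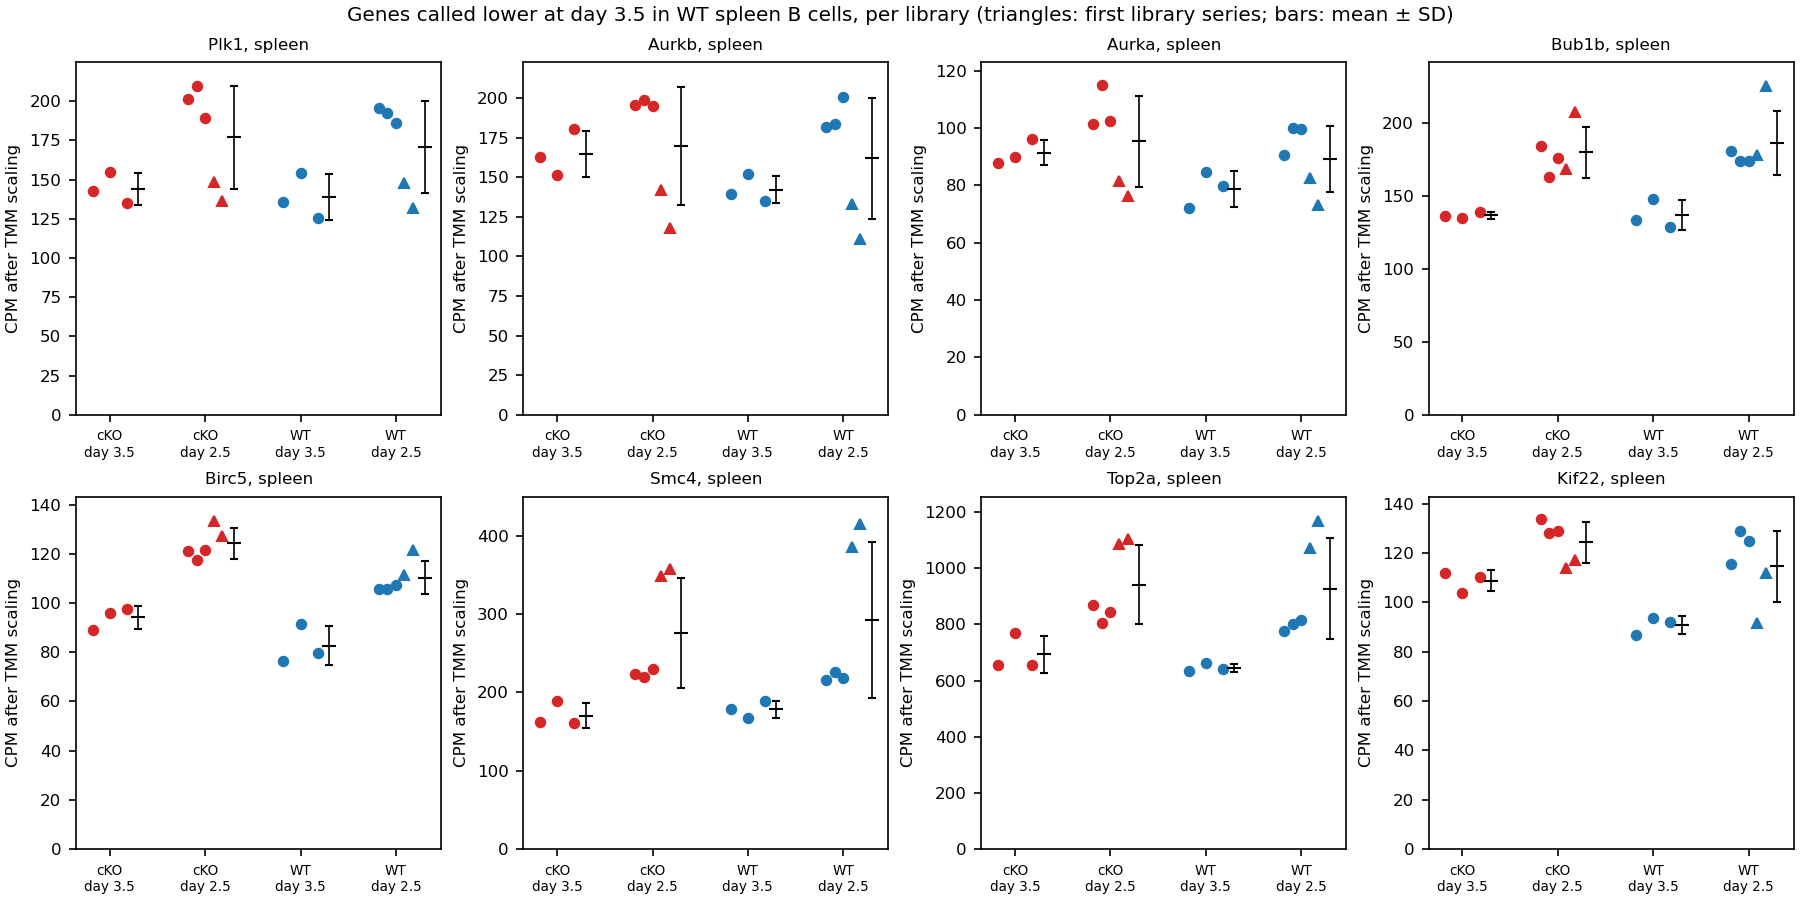
Levels in every spleen library (CPM after TMM scaling) of the 8 genes called lower at day 3.5 in WT cells, by genotype and day, with triangles for the first library series and bars for mean ± SD. Day 3.5 libraries sit below the second-series day 2.5 libraries in both genotypes for all 8 genes, and the first-series triangles sit low for Plk1, Aurkb and Aurka and high for Smc4 and Top2a.

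The other genes fixed by role did not pass the threshold. Ccnb1 was at -0.08 ± 0.11 in cKO and -0.23 ± 0.11 in WT cells, Cdc20 at -0.22 ± 0.12 and -0.37 ± 0.12, Tpx2 at -0.35 ± 0.10 and -0.31 ± 0.10, Kif11 at -0.30 ± 0.13 and -0.35 ± 0.13, and Foxm1 at -0.09 ± 0.16 and 0.10 ± 0.16, in the same order of genotypes. Mki67 was at -0.18 ± 0.23 in cKO and -0.07 ± 0.24 in WT cells, with a standard error that reflects its spread at day 2.5. The summed level of the 52 was 7001 to 7789 CPM at day 3.5 (mean 7292 ± 433, n = 3) and 8302 to 9707 at day 2.5 (8706 ± 569, n = 5) in cKO cells. In WT cells it was 6601 to 7098 at day 3.5 (6770 ± 284, n = 3) and 7688 to 9355 at day 2.5 (8352 ± 681, n = 5). The days did not overlap in either genotype.

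**Figure D4:**
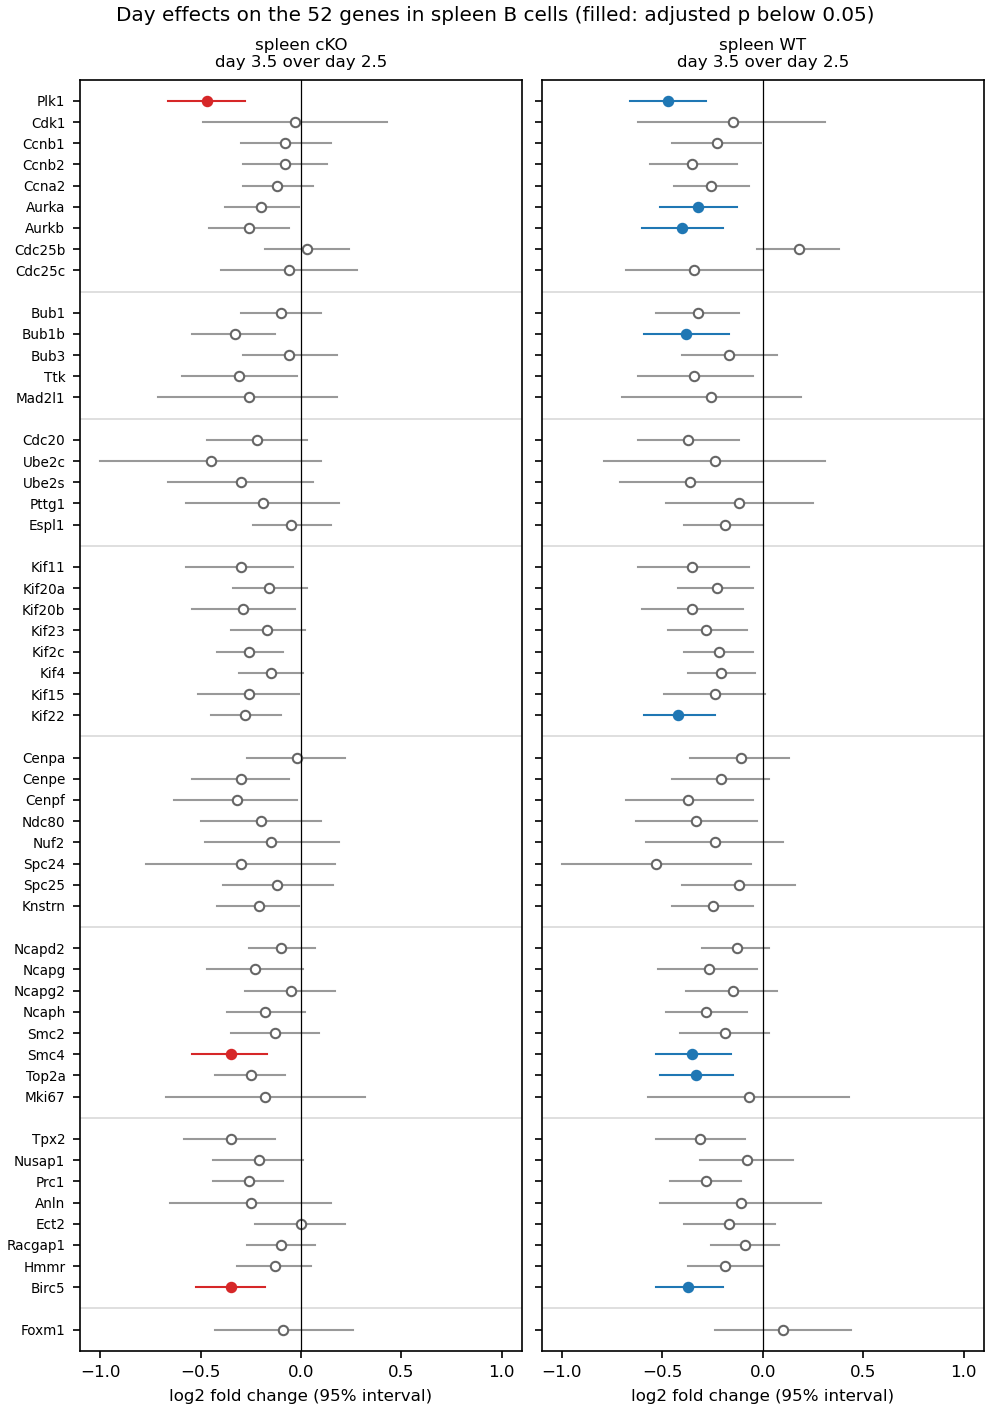
Log2 fold change, day 3.5 over day 2.5, of each of the 52 genes with its 95% interval in cKO and WT spleen B cells, ordered by role; filled points have an adjusted p below 0.05. Nearly all points lie left of 0, with 3 filled in cKO and 8 in WT cells.

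The counts of called genes moved with the setting. In the second library series alone, which holds all day 3.5 libraries, 15 members were called lower in cKO and 20 in WT cells, and none higher, with 4.49% and 6.4% of all genes called lower. DESeq2 called 9 and 16 lower and none higher, with 1.76% and 2.33% of all genes called lower. Without the term for library series the calls were 1 in cKO and 2 in WT cells. Single libraries mattered: the cKO count was 0 without day 3.5 replicate 3, 1 without day 3.5 replicate 1 or without any of day 2.5 replicates 1 to 3, and 5 without day 2.5 replicate 4. The WT count was 2 without day 3.5 replicate 1 or 3, 5 without day 3.5 replicate 2, 3 without day 2.5 replicate 3, 4 without day 2.5 replicate 2 and 15 without day 2.5 replicate 4. With fly spike-in scaling, which moved the median of all genes to -0.22 in cKO and -0.08 in WT cells, 0 members were called, while the medians of the 52 were -0.42 and -0.36. Plasma cell markers moved with the day: their summed level was 741 to 944 CPM at day 3.5 and 425 to 623 at day 2.5 in cKO cells, and 739 to 1216 at day 3.5 and 458 to 639 at day 2.5 in WT cells. None of the 5 markers was at 0 in a spleen group, and Jchain, which encodes the joining chain of IgM and IgA, was called higher in both genotypes, as was Sdc1 in cKO cells. The part of these markers in the differences of the mitotic genes was not tested.

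Genes around the 52 give the wider picture of the cell cycle between the spleen days. Of 87 other G2 and mitosis genes, Psrc1 was called higher and Lmnb1, Tubb4b, Mybl2 and Incenp lower in WT cells; in cKO cells Psrc1 alone was called, higher. Psrc1 encodes a spindle protein and is a p53 target, and it averaged 53.8 ± 4.73 CPM at day 3.5 and 28.2 ± 3.32 at day 2.5 in cKO cells, against 61.6 ± 13.6 at day 3.5 and 30.1 ± 3.79 at day 2.5 in WT cells. Of 50 DNA replication genes, 6 were called lower in WT cells (Pold1, Pola1, Mcm2, Dut, Lig1 and Uhrf1) and 0 in cKO cells, where 13 had an unadjusted p below 0.05. Cdkn1a, which encodes the CDK inhibitor p21, rose by 1.96 ± 0.23 in cKO cells (72.0 ± 12.5 CPM at day 3.5 and 20.4 ± 5.1 at day 2.5) and by 2.12 ± 0.23 in WT cells (71.3 ± 22.3 at day 3.5 and 18.0 ± 4.43 at day 2.5). Its adjusted p was 0.00046 in cKO and 0.00018 in WT cells. Of the other CDK inhibitors, Cdkn2d fell by 0.60 ± 0.15 (adjusted p = 0.029) and Cdkn2a rose by 0.87 ± 0.24 (adjusted p = 0.049) in WT cells, and neither was called in cKO cells. The G1 cyclin gene Ccnd3 fell by 0.71 ± 0.16 in WT cells (adjusted p = 0.017), and no gene of the G1 list was called in cKO cells. Of all genes, edgeR called 0.688% lower in cKO and 1.28% in WT cells. DESeq2 called 6 of 50 DNA replication genes lower in cKO and 11 in WT cells. Of 6 tested G1 genes it called 2 lower in cKO and 1 in WT cells. Its shares of all genes called lower were 1.76% and 2.33%. No difference of the genotype effects between the days was called, so these counts do not show that the genotypes differ.

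Between the genotypes in spleen, Haus8 was called higher among the other G2 and mitosis genes on both days. It encodes a subunit of augmin, which nucleates microtubules inside the spindle, and averaged 23.0 ± 2.59 CPM in cKO and 16.3 ± 1.26 in WT cells at day 2.5, and 21.6 ± 0.37 in cKO and 15.2 ± 1.04 in WT cells at day 3.5. Its log2 fold changes were 0.49 ± 0.09 (adjusted p = 0.0056) and 0.51 ± 0.12 (adjusted p = 0.035). Cenpp and Melk were called lower at day 2.5, so 3 of 87 were called there, beside the 5.18% of all genes. Of 50 DNA replication genes, Slbp, Cdc6, Uhrf1 and E2f2 were called higher and Pola1 lower at day 2.5. Of the CDK inhibitors, Cdkn2b was called higher at day 2.5 and Cdkn2d at day 3.5, and Cdk2, the S phase kinase, was called higher at day 3.5. None of the 12 cohesin genes was called. In CH12F3 cells no gene of these cell cycle lists was called between the genotypes in edgeR without the replicate block, which leaves the cell marker lists aside. With the block, at CH12F3 day 1.5, 2 of 87 other G2 and mitosis genes were called higher, with 8.6% of all genes called. Of 50 DNA replication genes, 3 were then called higher and 1 lower. So were 2 of 15 tested CDK inhibitors and pocket proteins and 2 of 7 G1 genes, all higher. DESeq2 called 1 DNA replication gene lower and 1 G1 gene higher there. Of the B cell markers, Ebf1 was called lower in cKO cells at day 2.5; all 8 markers were detected in both genotypes, and the part of such differences in the calls was not tested.

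More members were called between the library series than between genotypes or days. Second over first series, 16 of the 52 were called higher and 6 lower in CH12F3, with 38.5% of all genes called, and 16 higher and 22 lower in spleen, with 40.3% of all genes called. In spleen all 5 genes of the anaphase-promoting complex and separase group and 6 of 9 kinases and cyclins were called higher in the second series, while 6 of 8 condensin and chromosome structure genes, 6 of 8 spindle and midzone genes and 5 of 8 kinetochore genes were called lower. Ube2c, the E2 that starts ubiquitin chains together with the complex, was at 0.83 ± 0.22, Aurkb at 0.61 ± 0.08 and Cdc20 at 0.56 ± 0.10. Cenpe was at -0.91 ± 0.09, Kif20b at -0.84 ± 0.10, Cenpf at -0.82 ± 0.12 and Smc4 at -0.76 ± 0.07. In CH12F3, Ccnb1 was at 0.78 ± 0.09, Bub3 at 0.65 ± 0.08 and Ccnb2 at 0.62 ± 0.08, with Cenpf at -0.74 ± 0.12, Cenpe at -0.60 ± 0.07 and Mki67 at -0.51 ± 0.10.

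The difference between the series varied with gene span. The 23 members that span 30 kb or more had a median log2 fold change of -0.42 in spleen and -0.04 in CH12F3, second over first series, and the 29 shorter ones 0.25 in spleen and 0.23 in CH12F3. Between the genotypes, long and short members had medians of 0.03 and 0.07 at spleen day 2.5 and 0.05 and 0.11 at day 3.5, and between the days medians of -0.21 and -0.18 in cKO and -0.25 and -0.26 in WT cells. Spans ran from 4.2 kb (Ube2s) to 101.5 kb (Kif4), with a median of 27.35 kb. The medians describe this set of genes and were given no test.

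Pttg1 and Cdc25b stood at the ends of the mitotic set when CH12F3 was compared with spleen B cells. ELOF1 libraries of CH12F3 were set against WT libraries of spleen, over all days (8 libraries each), in 1 joint fit, so cell type, stimulus and day cannot be told apart. Of the 52, 11 were called higher and 26 lower in CH12F3, with 67.4% of all genes called, so the count of called members was near the background. The median log2 fold change was -0.19 against -0.03 over all genes. Under fly spike-in scaling, which moved the median of all genes to 1.08, 49 were called higher and 1 lower (Cdc25b) with a median of 0.93, so the direction of most members called lower turned with the scaling. The values below are relative to the rest of the mouse transcripts.

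Pttg1 had the highest fold change of the set: it averaged 54.7 ± 8.22 CPM in CH12F3 (42.2 to 63.1) and 13.4 ± 2.49 CPM in spleen (9.3 to 16.8; SD, n = 8 each), 4.07-fold, with an adjusted p of 3.7e-17. No CH12F3 library lay as low as a spleen library. Cenpe (0.71 ± 0.07), the midzone scaffold gene Anln (0.68 ± 0.13), the checkpoint kinases Bub1 (0.61 ± 0.11) and Ttk (0.60 ± 0.10), and the spindle gene Hmmr (0.55 ± 0.07) followed. Cdc25b had the lowest: it averaged 48.0 ± 4.47 CPM in CH12F3 (39.9 to 54.7) and 140 ± 19.3 CPM in spleen (105 to 167), a 3.04-fold lower level in CH12F3 (adjusted p = 3.5e-17). It was followed by the kinetochore genes Spc24 (-0.86 ± 0.15) and Spc25 (-0.77 ± 0.10), Birc5 (-0.76 ± 0.06), Prc1 (-0.73 ± 0.06) and the condensin ATPase gene Smc2 (-0.65 ± 0.08). Under fly spike-in scaling these 5 were above 0. Cdc25b overlaps Spef1.

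By role, 7 of 8 condensin and chromosome structure genes were called lower in CH12F3 and 0 higher, as were 4 of 9 kinases and cyclins with 0 higher. The checkpoint genes were mixed (3 higher, 2 lower of 5), as were the spindle and midzone genes (4 higher, 3 lower of 8), the kinetochore genes (2 higher, 4 lower of 8) and the kinesins (1 higher, 4 lower of 8). Under fly spike-in scaling Cdc25b was the only member called lower, so the other lower calls named by role did not hold there. T and NK cell markers summed to 21.9 to 98.3 CPM in CH12F3 and 0.881 to 3.64 CPM in spleen. Myeloid cell markers summed to 47.0 to 235 CPM in CH12F3 and 2.72 to 18.1 CPM in spleen. Such sums do not show which cells were present. B cell markers were called lower in CH12F3 for 7 of 8. The part of all these markers in the differences was not tested.

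**Figure D5:**
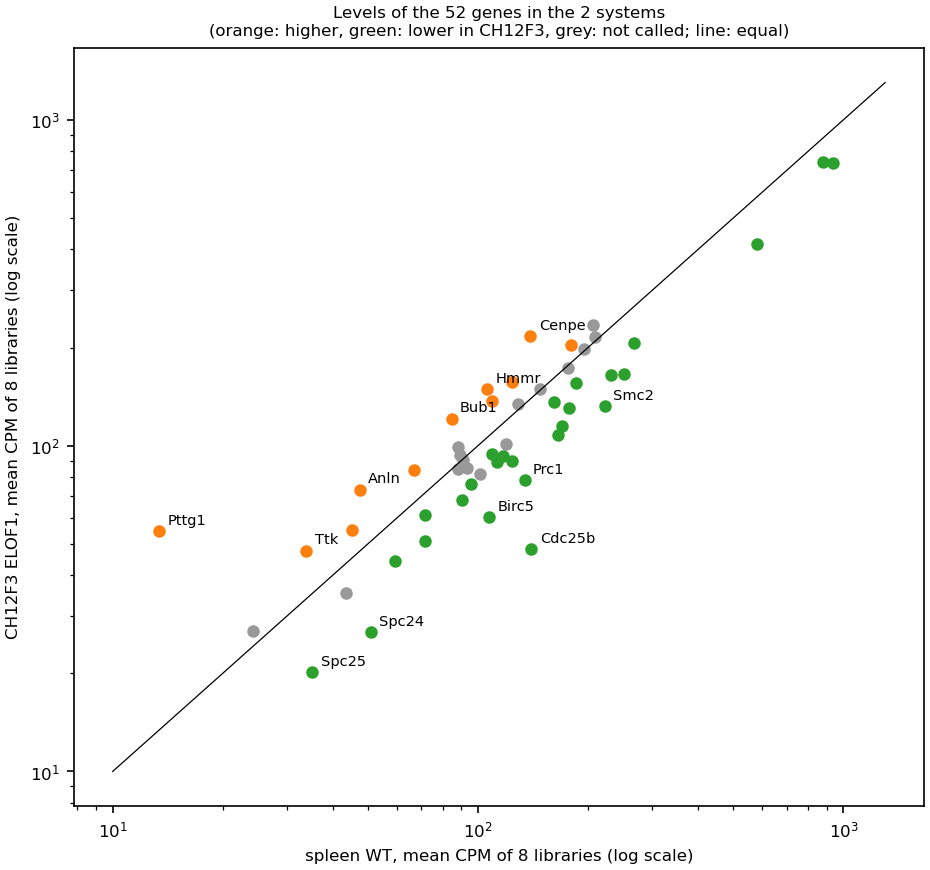
Mean level of each of the 52 genes in CH12F3 ELOF1 libraries and in spleen WT libraries (CPM from the joint scaling, log axes, n = 8 each), with the genes of the largest differences labelled. Most genes lie near the line of equal level, with Pttg1 on the CH12F3 side and Cdc25b on the spleen side.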

How the data were processed

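RNA was measured by sequencing of ribosome-depleted total RNA in 32 libraries. The values deposited by the authors are raw read counts per gene, in 1 table per cell system; per the submitters' processing notes, reads were handled with Bowtie2 and featureCounts on mm10 and dm6 (no versions listed). Counts on fly genes (17509 per table) come from Drosophila S2 RNA added to each sample, per the labels, and were set aside. The gene release, the strand setting and the handling of multiply mapping reads are not given in the sources used. Mouse counts without a symbol were 0.355% to 0.47%.

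The members and the comparison lists were chosen with earlier results of these data known. Each system was fitted once over its 16 libraries with edgeR 4.0.16 (limma 3.58.1, R 4.3.3): TMM scaling, filterByExpr with a minimum count of 10, quasi-likelihood tests with group and library series as terms, and Benjamini-Hochberg adjustment over all genes tested. The procedure was tested on simulated data. Named genes were the members called between genotypes, 12 members fixed by role, up to 6 called members with the largest rise and 6 with the largest fall per time and system comparison (Top2a and Aurka were added after their values were seen), the 3 highest and lowest levels per kb, and called genes of the comparison lists. Within library series, same-numbered libraries of the 2 CH12F3 genotypes correlated at 0.472 and 0.533 at day 1.5. They correlated at 0.564 at day 3 and 0.403 at day 7. Where a group holds 2 libraries of a series, both of its pairs share 1 value, so these are few separate values. The numbers were taken to pair the CH12F3 libraries. In spleen, within library series, same-numbered day 2.5 libraries correlated at 0.812 for replicates 4 and 5 and at 0.161, -0.225 and -0.143 for replicates 1 to 3, so the numbers were not taken to pair all spleen libraries. DESeq2 1.42.0, other scalings, filters, terms and library subsets were alternatives. The result for a cell marker gene is not reported here.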

Additional observations from a re-analysis of the deposited data

Results flagged for a closer look

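Single libraries that stood apart from the others of their group were looked for in 84 series of values, covering 20 members and the summed level of the 52, by the gap to the nearest other library over the range (Dixon's 95% critical value); chance alone gives about 1 in 20. A total of 9 were found, all of them first-series libraries. Only the CH12F3 day 1.5 and spleen day 2.5 groups were tested, and no other group holds first-series libraries. These groups mix both series, so the rate of 1 in 20 need not hold for them. In spleen cKO cells at day 2.5, Mki67 was 1818 CPM in replicate 4 (836 to 1029 in the others), the summed level of the 52 was 9707 CPM in replicate 4 (8302 to 8571), and Foxm1 was 70.7 CPM in replicate 5 (118 to 128). In spleen WT cells at day 2.5, Mki67 was 1655 CPM in replicate 4 (706 to 881), Foxm1 was 62.1 CPM in replicate 5 (96.7 to 109), Ndc80 was 70.8 CPM in replicate 5 (37.5 to 43.9), Tpx2 was 266 CPM in replicate 5 (180 to 202) and Bub1b was 226 CPM in replicate 5 (174 to 181). In CH12F3 ELOF1 cells at day 1.5, Top2a was 866 CPM in replicate 1 (813 to 819). Mki67 and Foxm1 stood apart in the same-numbered library of both genotypes.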

How the results depend on the processing

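Fly spike-in scaling gave medians of the 52 of -0.18 at CH12F3 day 3, -0.16 at CH12F3 day 7, -0.11 at spleen day 2.5 and -0.18 at spleen day 3.5 between genotypes, against all-gene medians of -0.19, -0.14, -0.14 and -0.29, and 0 members called in each spleen genotype and day comparison. Between the systems it put Spc24 at 0.25, Spc25 at 0.36, Birc5 at 0.36, Prc1 at 0.39 and Smc2 at 0.46, all below 0 with TMM; the change of scale is the only difference between these fits. For members called, the values below are counts. At spleen day 2.5 (2 called) the count was 0 with no filter on low counts, 0 with no term for library series and 0 with only the compared groups. It was 0 in the first library series alone, an alternative added after seeing the data (median -0.03). That fit called 0 of all 13203 genes it tested, so its count says nothing about the members. The count was 4 in the second series alone, 4 with DESeq2 (Ect2 lower, the others higher), and 0 to 3 without 1 replicate. At spleen day 3.5 (1 called) it was 0 with no filter, 0 with no series term, 2 with only the compared groups, 5 in the second series, 3 with DESeq2, and 0 to 1 without 1 replicate. Between the days, cKO cells (3 called) gave 1 with no series term, 15 in the second series, 9 with DESeq2 and 0 to 5 without 1 replicate; WT cells (8 called) gave 4 with no filter, 2 with no series term, 20 in the second series, 16 with DESeq2 and 2 to 15 without 1 replicate. DESeq2 called 1 member in vector cells at day 3 and 1 at day 7 over day 1.5. The cause of these changes was not tested.

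With the replicate block, 2 members were called at CH12F3 day 1.5. The spleen numbers paired the libraries only in part: within library series, same-numbered libraries correlated at 0.812 for day 2.5 replicates 4 and 5, at 0.161, -0.225 and -0.143 for day 2.5 replicates 1 to 3 and at 0.082, -0.304 and -0.14 at day 3.5. Without regard to series the day 2.5 values were 0.343 to 0.827. In spleen the block gave 5 members at day 2.5 and 3 at day 3.5, beside 837 genes higher and 706 lower, and 437 higher and 393 lower; it changed no other count of members called among the genotype comparisons and their differences between days, the comparisons it was run on. Over all genes, DESeq2 called 230 higher and 217 lower at CH12F3 day 1.5, 538 and 495 at spleen day 2.5, and 312 and 261 at day 3.5, where edgeR called 86 and 78, 377 and 316, and 153 and 124. DESeq2 called 9 and 4 at CH12F3 day 3 and 12 and 15 at day 7, where edgeR called 0 and 1, and 2 and 3; over day 1.5 it called 14 and 39 at day 3 and 64 and 108 at day 7 in vector cells, and 5 and 18 at day 3 and 40 and 61 at day 7 in ELOF1 cells, where edgeR called 0 and 1, 6 and 18, 0 and 1, and 4 and 3. Between the spleen days of cKO cells DESeq2 called 568 and 235, where edgeR called 363 and 92. In WT cells DESeq2 called 741 and 312 between the days. Fly spike-in scaling called 5 higher and 40 lower at CH12F3 day 1.5, 30 and 63 at spleen day 2.5, 17 and 88 at spleen day 3.5, and between the days 41 and 20 in cKO and 145 and 22 in WT cells, where TMM gave 558 and 171 in WT cells. With edgeR, the second series alone called 0 at CH12F3 day 1.5 (902 at an unadjusted p below 0.05), 648 and 558 at spleen day 3.5, and between the days 1101 and 577 in cKO and 1183 and 822 in WT cells. Without 1 replicate, the medians were -0.03 to 0.06 at CH12F3 day 3 and -0.03 to 0.05 at day 7. Of the single-gene values, 1209 kept direction and side of the threshold, 91 lost the call, 7 gained it and 5 turned. With 2 or 3 libraries per group at the later days, differences larger than the CH12F3 interval widths given above may also have been missed. In vector cells, edgeR did not call Prc1 at -0.43 for day 3 over day 1.5. Nor did it call Cdc25b at -0.5 for day 7 over day 1.5.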
